A study of Mus musculus with 6 samples.

Results

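Muscle and liver transcripts were compared in ob/ob mice of the strain B6.V-Lepob/J, which carry a mutation in the leptin gene, make no working leptin hormone and become obese and insulin resistant. The comparison took the 4 arrays labelled muscle or liver, out of 6 arrays in the series, by their tissue label. Each tissue had 1 array from a mouse group given phosphate-buffered saline (PBS) and 1 from a group given MCSE, which the labels describe as a water extract of seeds and the series title links to bitter melon (Momordica charantia). After a fast of 4 h the mice received PBS or extract by gavage, then 15 min later glucose into the peritoneum at 1 g/kg, and tissues were taken 4 h after that. The series title concerns a plant protein that binds the insulin receptor. The comparison of the tissues asked which transcripts set muscle apart from the liver-labelled arrays whatever the treatment, so the PBS and the MCSE array of a tissue served as its 2 replicates. The sources used here gave neither the age of the mice nor whether an array held RNA of 1 mouse or of a pool. The spread between the 2 arrays of a tissue therefore holds any effect of MCSE, and it may hold the difference between 2 mice or between 2 pools.

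Skeletal muscle fibres are built from sarcomeres, in which myosin heavy and light chains pull on actin filaments under the control of troponin and tropomyosin, and calcium released from the sarcoplasmic reticulum starts the contraction. Fast and slow fibres use different genes for most of these parts. Hepatocytes secrete most plasma proteins and carry out urea synthesis, gluconeogenesis and bile acid synthesis. Fat cells store triglyceride and secrete leptin and adiponectin, and the tubule cells of the kidney are marked by segment-specific transporters.

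One-colour arrays of 29922 probes were read, and 16524 genes, each at its brightest probe, could be compared. Values are log2 intensities, on which a step of 1 is a 2-fold difference. The median of all probes was 8.95 and the upper quartile 10.20 on each of the 4 arrays. Intensities under the 5th percentile were raised to it, a floor of 7.74. In what follows, a pair of values gives the PBS array first and the MCSE array second, and a difference is the mean of the muscle arrays minus that of the liver-labelled arrays with its standard error from limma. A gene passed at an adjusted p under 0.05 together with a difference of at least 2-fold. A single gene in 2 arrays against 2 could not have reached significance by an exact permutation test, whose smallest two-sided p is 0.333. The p-values rest partly on a spread estimated over all genes, and the small number of arrays limits their precision. The brightest values lay near 16, at the top of the measured range, where differences may be compressed.

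The labels were checked first. On the muscle arrays, 17 and 16 of 18 fast-fibre genes lay in the upper quartile of intensities. On the liver-labelled arrays hepatocyte genes were part bright and part dim. Of 29 plasma protein genes 21 and 20 reached the upper quartile there, and Alb, Ttr and Fbp1 were among the bright ones, with values given below. Of 32 hepatocyte enzyme genes, 18 and 16 reached it, against 28 and 28 of 30 fat cell genes and 21 and 24 of 28 genes of the proximal tubule of the kidney. Several enzymes and transporters specific to hepatocytes were dim. Hal, the histidine-degrading enzyme of liver, lay at 8.20 and 8.21 on the liver-labelled arrays and 8.21 and 8.17 on the muscle arrays, all below the median of all probes. Abcb11, the bile salt export pump, lay at 8.45 and 8.29 and Slc10a1, which takes bile salts up into hepatocytes, at 8.19 and 8.30 on the same liver-labelled arrays. The arrays are called liver-labelled below because fat and kidney transcripts were bright on them beside those of liver. In bulk RNA of this kind, fewer cells of a type and less RNA per cell cannot be told apart. The 2 muscle arrays correlated at 0.958 over all probes and the 2 liver-labelled arrays at 0.926. The MCSE liver-labelled array correlated more closely with the MCSE adipose-labelled array (0.982), which was not used in the fit, than with its own PBS partner. Without the MCSE liver-labelled array the median difference of the muscle lists was 3.62, that of the liver lists -0.88, that of the fat lists -0.86 and that of the kidney lists -1.11. With all 4 arrays these medians were 3.78, -0.91, -0.91 and -1.55.

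Between muscle and the liver-labelled arrays, 943 genes (5.71% of those tested) passed as higher in muscle and 1652 (9.998%) as lower. The largest differences were those of muscle genes. Of the genes that passed, 55 were at least 32-fold higher in muscle and 8 at least 32-fold lower. The median difference over all genes tested was -0.04. The median size of the difference between tissues was 0.49, against 0.19 between the 2 muscle arrays and 0.33 between the 2 liver-labelled arrays. The split of the calls moved with the scale. With each array centred on proteasome and ribosome genes the median difference of all genes became -0.36, and 609 genes passed as higher and 2555 as lower (19.2% higher, against 36.3% before). On that scale the proteasome list itself had a median of -0.32, against -0.0045 before. With any 1 of the PBS muscle, MCSE muscle, PBS liver-labelled or MCSE liver-labelled arrays left out, limma gave 0 genes in each direction, while 3464, 3126, 5970 and 6133 genes had an unadjusted p under 0.05. The largest differences are described by gene group below. Each count of genes that passed there is to be read against the shares over all genes, 5.71% higher and 9.998% lower.

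**Figure D1:**
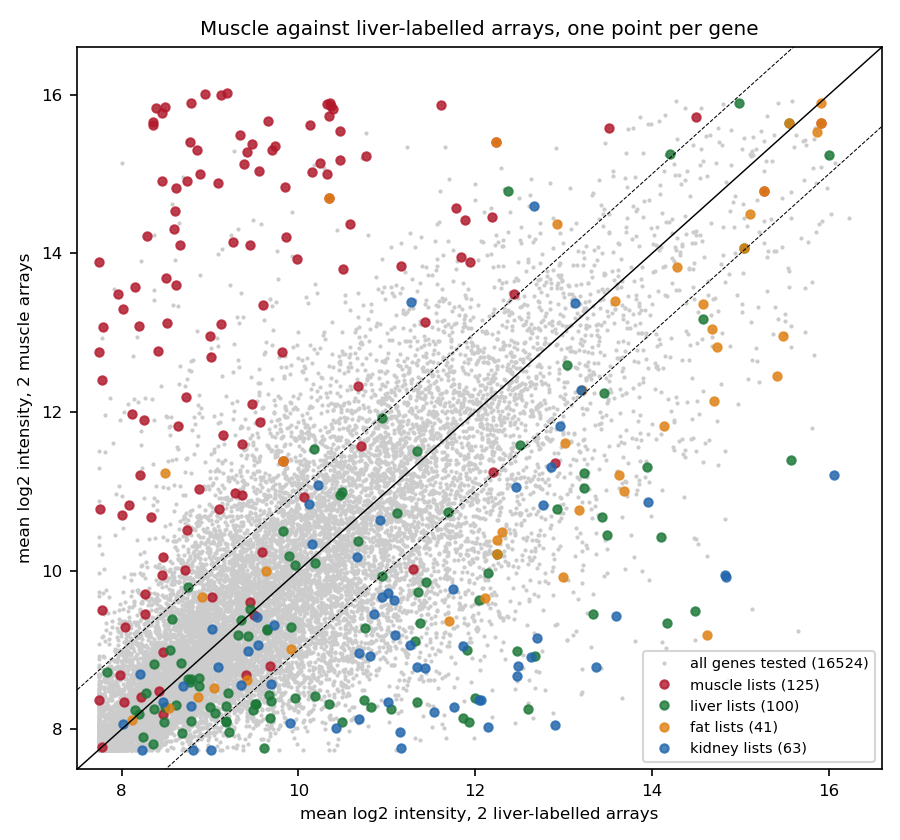
Mean log2 intensity of the 2 muscle arrays (y) against that of the 2 liver-labelled arrays (x) for the 16524 genes tested (grey) and for the members of the muscle, liver, fat and kidney lists. A gene on lists of more than 1 tissue shows the colour drawn last. Dashed lines mark a 2-fold difference. Of the 125 muscle list genes, 116 lie above the diagonal, and the brightest of them lie near 16 in muscle. The medians of these lists were 13.42 and 13.83 on the muscle arrays and 9.31 and 8.90 on the liver-labelled arrays. The kidney list genes lie mostly to the lower right.

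The fast-fibre genes had the largest median difference of the 34 lists compared. Of 18 such genes, 16 passed as higher in muscle and 1 as lower, with a median difference of 6.01, against -0.04 over all genes. Mybpc2, fast myosin-binding protein C, which braces the thick filament, lay at 15.89 and 15.77 on the muscle arrays and 8.44 and 8.35 on the liver-labelled arrays. Its difference was the largest of any gene (7.44 ± 0.17, adjusted p = 0.00429). The adult fast myosin heavy chains were close behind it. Myh1 (type 2X) lay at 15.87 and 15.81 on the muscle arrays and no higher than 8.99 on the liver-labelled arrays. On this probe Myh1 differed by 7.35 ± 0.38, adjusted p = 0.00596. A second probe of Myh1, with a mean of 10.56, gave only 1.59. Myh4 (type 2B) lay at 16.05 and 15.48 on the muscle arrays and 8.16 and 8.76 on the liver-labelled arrays and differed by 7.31 ± 0.33, adjusted p = 0.00515. Myh2 (type 2A) lay at 15.47 and 15.76 on the muscle arrays and 8.60 and 8.11 on the liver-labelled arrays and differed by 7.26 ± 0.25, adjusted p = 0.00429. On their brightest probes the 3 motor genes sat around or below the median of all probes on the liver-labelled arrays, and the groups were separated by more than 6 log2 steps.

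Most other fast-list genes were also far higher in muscle. Mylpf, the fast regulatory light chain, lay at 16.01 and 16.01 on the muscle arrays and 8.59 and 9.30 on the liver-labelled arrays (7.07 ± 0.29, adjusted p = 0.00457). Actn3, the actinin of fast Z-discs, lay at 16.04 and 16.01 on the muscle arrays and 9.52 and 8.86 on the liver-labelled arrays (6.83 ± 0.28, adjusted p = 0.00457), and its second probe gave 6.57. Ckm, muscle creatine kinase, which regenerates ATP at the myofibril, lay at 15.96 and 15.83 on the muscle arrays and 9.02 and 8.55 on the liver-labelled arrays (7.11 ± 0.24, adjusted p = 0.00429). Tnnt3, fast troponin T, lay at 15.83 and 15.14 on the muscle arrays and differed by 6.15 ± 0.35, adjusted p = 0.00753. Tnnc2, the calcium-binding troponin C, differed by 5.56 ± 0.46, adjusted p = 0.0103. Myl1, an alkali light chain, lay at 10.36 and 10.35 on the liver-labelled arrays, above their upper quartile, and its difference was 5.55. Pvalb, parvalbumin, which buffers calcium in fast fibres, gave 15.64 and 15.99 against 10.51 and 10.28, a difference of 5.42.

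A pair of fast-list genes did not follow. Tnni2, fast troponin I, lay at 8.54 and 8.42 on the muscle arrays and 8.60 and 8.24 on the liver-labelled arrays, below the median of all probes on each of the 4 arrays, and its 1 probe gave a difference of 0.06 ± 0.21, adjusted p = 0.865. Tpm1, a tropomyosin shared by striated and smooth muscle and, in other splice forms, by many cells, lay at 10.25 and 9.79 on the muscle arrays and 11.21 and 11.39 on the liver-labelled arrays and passed as lower in muscle (-1.28 ± 0.23, adjusted p = 0.0353). Eno3, the muscle enolase, passed on its brightest probe (4.89 ± 0.57, adjusted p = 0.016), with 14.36 and 15.91 on the muscle arrays and 10.05 and 10.44 on the liver-labelled ones, but a second, dimmer probe gave the opposite sign (-1.91).

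The promoter of Myh4, the 2B myosin gene, is shown because the gene was among the 4 largest differences and its window holds a CArG box, the site of serum response factor. The sequence is the RefSeq window of 300 bases from 250 before to 50 after the gene start, on the plus strand of chr11:67237562-67237861 (GRCm38.p6). Capitals mark the CArG box, which begins 104 bases before the start, and 3 matches to TATAAA or its reverse complement, the nearest of which begins 31 bases before it.
Myh4: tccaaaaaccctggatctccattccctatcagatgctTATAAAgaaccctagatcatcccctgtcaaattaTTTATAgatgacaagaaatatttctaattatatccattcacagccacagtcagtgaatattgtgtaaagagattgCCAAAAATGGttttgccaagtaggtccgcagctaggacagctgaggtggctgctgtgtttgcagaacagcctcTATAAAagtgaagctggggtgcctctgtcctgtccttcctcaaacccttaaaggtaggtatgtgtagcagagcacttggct
Xirp2, described with the Z-disc genes below, is shown for its match to the MEF2 site (capitals), which begins 74 bases before the start (chr2:67445752-67446051, plus strand, GRCm38.p6).
Xirp2: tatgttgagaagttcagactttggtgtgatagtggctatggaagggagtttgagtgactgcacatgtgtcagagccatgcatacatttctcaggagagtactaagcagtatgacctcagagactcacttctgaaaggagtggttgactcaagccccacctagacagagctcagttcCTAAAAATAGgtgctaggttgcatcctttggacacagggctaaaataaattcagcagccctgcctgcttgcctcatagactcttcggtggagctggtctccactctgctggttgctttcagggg
Such matches were counted on both strands in all 32851 RefSeq windows of this length. The MEF2 site was present in 0.557% of all windows and in 6.25% of the 128 windows of muscle-list genes (99 of 125 genes matched a window). The CArG box was present in 1.63% of all windows and in 9.38% of the muscle-list windows, and the E-box CANNTG, to which MyoD-type factors bind, in 72.3% and 82.0%. Of all 125 muscle-list genes tested, 80 (64.0%) passed as higher in muscle. The MEF2 match occurred in 8 muscle-list genes, of which 4 passed as higher in muscle (Xirp2, Ttn, Myoz2 and Ppp1r3a). The CArG match occurred in 11, of which 8 passed (Acta1, Asb2, Asb5, Dmd, Fhl1, Ldb3, Myh4 and Myom1). Over all 1005 windows of the genes that passed as higher in muscle, the shares were 1.39% for MEF2 and 2.79% for CArG, and over the 1680 windows of genes that passed as lower 0.238% and 1.55%. The E-box was present in 69.3% of the windows of higher genes and 68.8% of those of lower genes, against 72.3% of all windows. These sets were drawn from the genes tested, whose 16536 windows are the closer background. There the shares were 0.472% for MEF2, 1.43% for CArG and 67.4% for the E-box. A match describes the letters and is not evidence of binding, and motifs were allowed to overlap.

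Sarcomere, Z-disc and membrane-anchor genes that are not tied to a fibre type were almost as far apart. Of 27 tested, 23 passed as higher in muscle and 0 as lower, with a median of 5.01. Xirp2, an actin-binding repeat protein of the Z-disc and intercalated disc, lay at 15.73 and 15.59 on the muscle arrays and 8.70 and 8.02 on the liver-labelled arrays (7.30 ± 0.29, adjusted p = 0.00457), while its second, dim probe gave 1.04. Pdlim3, an actinin-associated LIM protein, lay at 14.76 and 15.06 against 8.32 and 8.60 (6.45 ± 0.22, adjusted p = 0.00429). Myot, myotilin, lay at 14.99 and 14.64 against 8.33 and 8.90 and differed by 6.20. Myom2, an M-band protein, differed by 6.17 ± 0.23, adjusted p = 0.00429, Nrap by 6.11 ± 0.20, adjusted p = 0.00429, and Trim54, a ubiquitin ligase of the sarcomere, by 5.94 ± 0.17, adjusted p = 0.00429. Ttn, the giant spring protein titin, lay at 15.45 and 15.31 on the muscle arrays and 9.64 and 9.30 on the liver-labelled arrays (5.91 ± 0.21, adjusted p = 0.00429). In each of these genes the lower muscle array exceeded the higher liver-labelled array by more than 5 log2 steps.

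Other members of the group were bright under the liver label too. Acta1, skeletal actin, lay at 15.87 and 15.87 on the muscle arrays and 11.999 and 11.22 on the liver-labelled arrays, so that its difference of 4.26 ± 0.31, adjusted p = 0.00911 was smaller than that of myosin. Des, the intermediate filament desmin, which smooth muscle also makes, lay at 11.72 and 11.85 on the liver-labelled arrays and differed by 2.79. Fhl1 lay at 13.17 and 13.86 and Cryab, a small heat shock protein, at 14.56 and 14.43 there, with differences of 2.06 and 1.22. Sgca, alpha-sarcoglycan of the dystrophin complex, was at the floor on both liver-labelled arrays and at 12.62 and 12.89 on the muscle arrays (5.01 ± 0.19, adjusted p = 0.00432). Since the floor bounds the dim side, that difference is a lower limit. Dystrophin itself (Dmd) differed by 1.59 ± 0.19, adjusted p = 0.0165, but its second probe lay near the floor on the 4 arrays. Neb, nebulin, lay at 9.004 and 8.38 on the muscle arrays and 8.02 and 7.94 on the liver-labelled arrays and did not pass (0.71 ± 0.27, adjusted p = 0.154), and Myoz3 (0.16 ± 0.17, adjusted p = 0.547) did not either. Pdlim5 was at 8.88 and 8.73 against 9.73 and 9.63, under the 2-fold limit. Xirp1 differed by 3.75 ± 0.89, adjusted p = 0.0603 with 12.17 and 14.53 on the muscle arrays, a gap between them of more than 2 log2 steps.

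Genes that couple the nerve impulse to calcium release were compared next. Of 17 tested, 9 passed as higher and 0 as lower, with a median of 2.34, and in all 17 both muscle arrays exceeded both liver-labelled arrays, against 30.4% of all genes tested. Ryr1, the calcium release channel, lay at 15.39 and 15.20 on the muscle arrays and 8.97 and 8.73 on the liver-labelled arrays (6.45 ± 0.19, adjusted p = 0.00429), and its second probe gave 4.52. Cacna1s, the voltage sensor that opens it, lay at 13.35 and 13.85 on the muscle arrays and 8.82 and 8.42 on the liver-labelled arrays (4.98 ± 0.27, adjusted p = 0.00707). The gamma subunit Cacng1 differed by 5.28 ± 0.18, adjusted p = 0.00429. Srl, sarcalumenin of the reticulum lumen, lay at 14.47 and 14.58 against 8.62 and 8.60 and differed by 5.92. Stac3, an adaptor needed for the voltage sensor, lay at 12.38 and 12.43 against 7.82 and 7.74 (4.63 ± 0.17, adjusted p = 0.00429). The channel and receptor genes of the surface membrane were dimmer and did not separate as far. Chrnb1, an acetylcholine receptor subunit, passed (1.49 ± 0.18, adjusted p = 0.0175), whereas Chrna1 (1.18 ± 0.29, adjusted p = 0.0655), the sodium channel Scn4a (0.86 ± 0.31, adjusted p = 0.137) and the chloride channel Clcn1 (0.32 ± 0.18, adjusted p = 0.27) did not. All 4 readings of Clcn1 were dim, at 8.44 and 8.25 on the muscle arrays and 8.03 and 8.02 on the liver-labelled arrays.

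Genes of fuel use in muscle passed in 17 of 20 cases, all as higher in muscle, with a median of 4.35. Adssl1, the muscle form of adenylosuccinate synthase, lay at 15.34 and 15.36 on the muscle arrays and 9.78 and 9.68 on the liver-labelled arrays (5.61 ± 0.17, adjusted p = 0.00429). Pfkm, muscle phosphofructokinase, lay at 15.80 and 15.42 on the muscle arrays and 9.96 and 10.31 on the liver-labelled arrays (5.48 ± 0.24, adjusted p = 0.00515), and Pgam2, the mutase of a later glycolytic step, differed by 4.47 ± 0.21, adjusted p = 0.00515. Glycogen handling was represented by Pygm, glycogen phosphorylase, at 15.92 and 15.54 against 10.36 and 10.34 (5.38 ± 0.21, adjusted p = 0.00457), by Phka1, a phosphorylase kinase subunit (4.35 ± 0.18, adjusted p = 0.00457), and by Ppp1r3c, which targets a phosphatase to glycogen (4.99 ± 0.20, adjusted p = 0.00457). The muscle isoforms of cytochrome oxidase were higher as well, Cox6a2 by 6.01 ± 0.29, adjusted p = 0.00515 and Cox7a1 by 4.36 ± 0.39, adjusted p = 0.011. Pdk4, which holds back pyruvate oxidation, lay at 14.50 and 13.70 on the muscle arrays and 9.31 and 9.60 on the liver-labelled arrays (4.65 ± 0.33, adjusted p = 0.00901), and Ucp3, a mitochondrial carrier, differed by 3.64 ± 0.35, adjusted p = 0.0119.

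Insulin-dependent glucose entry separated less. Slc2a4, which encodes the GLUT4 transporter of muscle and fat, lay at 13.22 and 13.05 on the muscle arrays and 11.75 and 11.11 on the liver-labelled arrays (1.70 ± 0.28, adjusted p = 0.0284). Hk2, the hexokinase of the same tissues, lay at 14.13 and 13.66 on the muscle arrays and 12.12 and 11.76 on the liver-labelled arrays (1.95 ± 0.26, adjusted p = 0.0203). Lpl, lipoprotein lipase, and Gpd1, glycerol phosphate dehydrogenase, are abundant in fat cells too. Lpl lay at 15.67 and 15.61 on the muscle arrays and 15.86 and 15.97 on the liver-labelled arrays and Gpd1 at 15.11 and 14.47 on the muscle arrays and 15.41 and 15.12 on the liver-labelled arrays, and neither passed. Mb, the oxygen-binding protein myoglobin, lay at 15.33 and 15.76 on the muscle arrays and 12.54 and 8.40 on the liver-labelled arrays. Its difference of 5.07 ± 1.43, adjusted p = 0.0866 did not pass, with the PBS liver-labelled array about 4 log2 steps above its MCSE partner.

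Slow-fibre genes were higher on the muscle arrays in the mean, but fewer passed. Of 13, 6 passed as higher and 0 as lower, with a median of 3.18 that was 1.73 between the PBS arrays and 5.19 between the MCSE arrays. In 12 of the 13, both muscle arrays lay above both liver-labelled arrays, against 30.4% of all genes tested. The muscle arrays differed from each other here, with a median MCSE minus PBS difference of 1.21, against -0.03 over all genes tested, and the liver-labelled pair differed by -0.74 in the median (-0.02 over all genes). Myh7, the slow myosin heavy chain, lay at 11.92 and 15.46 on the muscle arrays and 8.54 and 8.48 on the liver-labelled arrays (5.18 ± 1.22, adjusted p = 0.0597). The slow troponins Tnni1, at 9.90 and 13.74 on the muscle arrays and 8.73 and 8.55 on the liver-labelled arrays (3.18 ± 1.33, adjusted p = 0.176), and Tnnt1, at 10.77 and 14.61 on the muscle arrays and 9.13 and 8.90 on the liver-labelled arrays (3.68 ± 1.33, adjusted p = 0.138), did not pass either. In all 3 the MCSE muscle array was more than 3 log2 steps above the PBS one, and in Tnni1 and Tnnt1 that gap was wider than the mean difference between the tissues. With 1 array for each tissue and treatment, the treatment, the mouse and the muscle dissected cannot be told apart. In the 6 members that passed, the muscle arrays lay less than 2 log2 steps apart. Csrp3, a Z-disc LIM protein, lay at 12.56 and 14.40 on the muscle arrays and 8.10 and 7.83 on the liver-labelled arrays (5.52 ± 0.66, adjusted p = 0.0165), Myoz2, calsarcin of slow and cardiac muscle, differed by 4.89 ± 0.68, adjusted p = 0.0218, Myl2, a slow light chain, by 4.35 ± 0.57, adjusted p = 0.0196, and Mybpc1, slow myosin-binding protein C, by 2.69 ± 0.19, adjusted p = 0.00901. Atp2a2, the slow calcium pump, which other cells also make, lay at 13.89 and 14.94 on the muscle arrays and 12.25 and 11.51 on the liver-labelled arrays (2.54 ± 0.47, adjusted p = 0.0357). Tnnc1, troponin C of slow and cardiac muscle, lay at 13.06 and 13.91 on the muscle arrays and 13.18 and 11.69 on the liver-labelled arrays (1.05 ± 0.61, adjusted p = 0.296), and its PBS liver-labelled value exceeded that of the PBS muscle array.

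Cardiac-type genes passed in 2 of 13 cases. Hspb7, a small heat shock protein of striated muscle, lay at 14.04 and 14.89 on the muscle arrays and 12.29 and 12.09 on the liver-labelled arrays (2.27 ± 0.34, adjusted p = 0.0246), and Ryr2, the cardiac calcium release channel, differed by 1.69 ± 0.36, adjusted p = 0.0476. Actc1, cardiac actin, lay at 14.001 and 13.69 on the muscle arrays and 12.55 and 9.78 on the liver-labelled arrays (2.68 ± 0.97, adjusted p = 0.138) and Tnnt2, cardiac troponin T, at 12.52 and 11.67 on the muscle arrays and 10.91 and 8.05 on the liver-labelled arrays (2.62 ± 1.04, adjusted p = 0.161). In both, the PBS liver-labelled array was more than 2 log2 steps above the MCSE one, and neither gene passed. A second probe of Actc1, with a mean of 12.09, gave 3.94. Nppb, at 8.36 and 8.01 on the muscle arrays and 8.66 and 8.27 on the liver-labelled arrays, was below the median of all probes on all 4 arrays. So was Nkx2-5, at 7.81 and 7.74 under both labels. Other members were brighter. Tnni3 lay at 12.19 and 11.56 on the muscle arrays and 10.29 and 8.84 on the liver-labelled arrays. Myh6 gave 11.61 and 10.46 against 9.44 and 8.30, and Gata4 12.18 and 12.47 against 10.18 and 11.17. None of these genes passed. Both muscle arrays exceeded both liver-labelled arrays in 10 of 13 list genes and lay below them in 1, against 30.4% and 36.04% of all genes.

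Among regulators of muscle identity, 7 of 17 passed as higher in muscle and 0 as lower. Myf6, the myogenic factor of mature fibres, was at the floor on both liver-labelled arrays and at 13.38 and 14.39 on the muscle arrays, a difference of at least 6.14 (adjusted p = 0.0079). Its relatives Myod1 (1.25 ± 0.29, adjusted p = 0.0558) and Myog (0.50 ± 0.21, adjusted p = 0.175) were dim on all arrays and did not pass. Mstn, myostatin, which limits muscle growth, averaged 13.08 on the muscle arrays and lay at 8.32 and 8.08 on the liver-labelled arrays (4.88 ± 0.19, adjusted p = 0.00457). Mef2c lay at 13.80 and 12.43 on the muscle arrays and 9.47 and 8.78 on the liver-labelled arrays (3.99 ± 0.55, adjusted p = 0.0213), while Mef2a (-0.72 ± 0.48, adjusted p = 0.346) and Mef2d (0.19 ± 0.21, adjusted p = 0.567) did not pass. The ubiquitin ligase adaptors Asb2, at 15.62 and 15.18 against 9.09 and 8.46, and Asb5, at 14.90 and 15.35 against 9.81 and 8.96, differed by 6.62 and 5.74. Smyd1, a methyltransferase of striated muscle, had no usable value, since its brightest probe gave 14.97 and 7.74 on the muscle arrays and 11.62 and 14.19 on the liver-labelled arrays and a difference of -1.55 ± 2.63, adjusted p = 0.718, whereas the second probe gave 5.03. The coactivator Ppargc1a lay at 11.71 and 11.06 on the muscle arrays and 8.96 and 10.70 on the liver-labelled arrays (1.55 ± 0.66, adjusted p = 0.18).

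**Figure D2:**
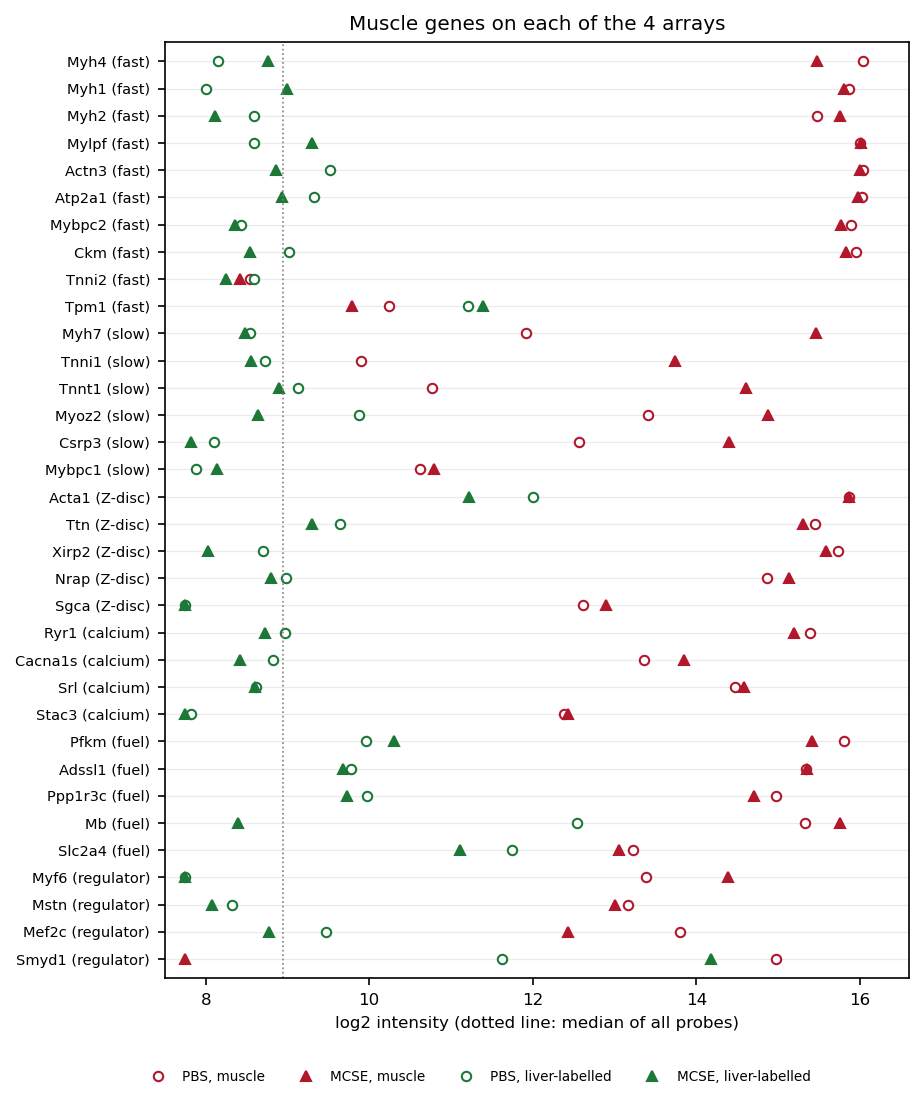
Log2 intensity of 34 muscle genes on the 4 arrays, with the PBS array as an open circle and the MCSE array as a filled triangle (red, muscle; green, liver-labelled). The dotted line is the median of all probes. The fast-fibre genes other than Tnni2 and Tpm1 form pairs near 16 on the muscle arrays, the 2 muscle points of Myh7, Tnni1 and Tnnt1 lie more than 3 log2 steps apart, and Tnni2 has all 4 points below the dotted line.

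The genes that were lower in muscle came from several tissues. Plasma protein genes of the hepatocyte passed as lower in 18 of 29 cases and as higher in 0, with a median of -1.77. Alb, serum albumin, lay at 12.35 and 10.44 on the muscle arrays and 15.79 and 15.36 on the liver-labelled arrays, a difference of -4.18 ± 0.69, adjusted p = 0.029. Ttr, transthyretin, which carries thyroid hormone and retinol-binding protein, lay at 9.80 and 8.87 on the muscle arrays and 14.13 and 14.20 on the liver-labelled arrays (-4.83 ± 0.36, adjusted p = 0.00912). Fgb and Fgg, the fibrinogen beta and gamma chains, differed by -4.34 ± 0.58, adjusted p = 0.0203 and by -2.99 ± 0.20, adjusted p = 0.0083. Apolipoprotein genes split. Apoc3 differed by -3.61 ± 0.22, adjusted p = 0.00753 and Apoa2 by -3.75 ± 0.44, adjusted p = 0.0162, while Apoa1, the main protein of HDL, lay at 11.54 and 11.62 on the muscle arrays and 12.29 and 12.73 on the liver-labelled arrays (-0.93 ± 0.22, adjusted p = 0.0626) and Apob, the scaffold of VLDL, at 8.51 and 8.78 on the muscle arrays and 8.66 and 9.09 on the liver-labelled arrays (-0.23 ± 0.24, adjusted p = 0.54).

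Rbp4, the retinol carrier made by liver and fat, lay at 10.30 and 10.55 on the muscle arrays and 14.60 and 13.60 on the liver-labelled arrays (-3.68 ± 0.39, adjusted p = 0.0135). Serpinc1, antithrombin, differed by -2.91 ± 0.40, adjusted p = 0.0212 and Trf, transferrin, by -2.18 ± 0.16, adjusted p = 0.00921. Several plasma proteins that are as abundant in liver as these did not separate. Ahsg, fetuin-A, lay at 9.88 and 10.30 on the muscle arrays and 10.10 and 10.27 on the liver-labelled arrays, within the spread of the replicates (-0.09 ± 0.22, adjusted p = 0.801). Vtn, vitronectin, gave -0.39 ± 0.23, adjusted p = 0.3 and F2, prothrombin, 0.48 ± 0.31, adjusted p = 0.344. Hp, haptoglobin, which fat cells also make, was near the top of the scale throughout, at 15.26 and 15.22 on the muscle arrays and 16.14 and 15.87 on the liver-labelled arrays (-0.77 ± 0.19, adjusted p = 0.0646). The muscle arrays were themselves far above the floor for Alb, whose PBS value exceeded the MCSE value by nearly 2 log2 steps.

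The albumin promoter is shown because Alb is the most abundant transcript of hepatocytes and passed here. Its window (chr5:90460620-90460919, plus strand, GRCm38.p6) holds 1 match to the reverse complement of TTGCNNAA, a C/EBP-type site, in capitals, beginning 94 bases before the start.
Alb: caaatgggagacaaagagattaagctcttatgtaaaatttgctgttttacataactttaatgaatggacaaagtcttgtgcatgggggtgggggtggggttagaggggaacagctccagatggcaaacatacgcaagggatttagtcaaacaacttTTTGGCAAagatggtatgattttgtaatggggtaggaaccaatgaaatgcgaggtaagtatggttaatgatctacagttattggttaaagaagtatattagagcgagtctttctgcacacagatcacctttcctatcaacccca
On both strands, TTGCNNAA was present in 10.8% of all RefSeq windows, in 22.1% of the 95 windows of liver-list genes and in 11.7% of those of muscle-list genes. Over the windows of all genes tested the share was 9.42%.

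Hepatocyte enzyme genes were mixed, with 12 of 32 lower in muscle, 2 higher and a median of -0.91. Fbp1, fructose bisphosphatase of gluconeogenesis, lay at 8.93 and 10.06 on the muscle arrays and 14.17 and 14.79 on the liver-labelled arrays (-4.99 ± 0.47, adjusted p = 0.0119), and its second probe gave -5.05. Slc2a2, which encodes the GLUT2 transporter, lay at 7.97 and 8.20 on the muscle arrays and 11.72 and 12.13 on the liver-labelled arrays (-3.84 ± 0.23, adjusted p = 0.00753). G6pc, the last enzyme of glucose release, lay at 10.11 and 10.80 on the muscle arrays and 12.72 and 14.25 on the liver-labelled arrays (-3.03 ± 0.60, adjusted p = 0.0408). Pck1, the entry enzyme of gluconeogenesis, lay at 13.85 and 14.29 on the muscle arrays and 14.93 and 15.14 on the liver-labelled arrays (-0.97 ± 0.23, adjusted p = 0.0627) and missed the threshold on this probe, while a second probe gave -4.08. The proximal tubule of the kidney also expresses these 4 genes, and fat cells express Pck1. Gnmt, a glycine methyltransferase of liver, differed by -2.54 ± 0.18, adjusted p = 0.00871, Tat, tyrosine aminotransferase, by -1.85 ± 0.16, adjusted p = 0.011, Uox, urate oxidase, by -1.57 ± 0.19, adjusted p = 0.0165 and the male-type Cyp2d9 by -3.72 ± 0.52, adjusted p = 0.0218. Arg1, arginase of the urea cycle, lay at 8.46 and 8.25 on the muscle arrays and 9.51 and 9.88 on the liver-labelled arrays (-1.34 ± 0.22, adjusted p = 0.0285).

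Of the 32 enzyme genes, 18 did not pass. Among them, Cps1, which starts the urea cycle, lay at 9.34 and 9.23 on the muscle arrays and 10.25 and 9.60 on the liver-labelled arrays (-0.64 ± 0.28, adjusted p = 0.192) and Otc, its next enzyme, at 9.27 and 9.23 on the muscle arrays and 9.78 and 9.50 on the liver-labelled arrays (-0.39 ± 0.19, adjusted p = 0.227). Cyp7a1, the rate-limiting enzyme of bile acid synthesis, lay at 11.26 and 10.72 on the muscle arrays and 11.03 and 9.95 on the liver-labelled arrays (0.50 ± 0.45, adjusted p = 0.475), and Cyp8b1 at 9.29 and 9.09 on the muscle arrays and 9.49 and 9.14 on the liver-labelled arrays (-0.12 ± 0.21, adjusted p = 0.721). Baat, which conjugates bile acids, passed in the other direction, at 15.40 and 15.11 on the muscle arrays and 14.30 and 14.12 on the liver-labelled arrays (1.05 ± 0.20, adjusted p = 0.0392), as did Pklr, liver pyruvate kinase (1.36 ± 0.18, adjusted p = 0.02). Fabp1, the liver fatty acid binding protein, lay at 10.75 and 8.16 on the muscle arrays and 13.77 and 12.89 on the liver-labelled arrays, and with more than 2 log2 steps between the muscle arrays its difference did not pass (-3.88 ± 0.95, adjusted p = 0.0646). Among regulators, 4 of 17 were lower in muscle and 0 higher. The largest difference of that list, 2.42 in Onecut1, was in the other direction and did not pass. Onecut1 lay at 14.89 and 14.70 on the muscle arrays and 10.84 and 13.90 on the liver-labelled arrays. Nr1h4, the bile acid receptor, lay at 10.01 and 9.92 on the muscle arrays and 12.17 and 12.11 on the liver-labelled arrays (-2.17 ± 0.17, adjusted p = 0.00949), Hamp, hepcidin, differed by -2.37 ± 0.39, adjusted p = 0.0283, Igf1 by -1.62 ± 0.21, adjusted p = 0.019 and the growth hormone receptor Ghr by -1.41 ± 0.17, adjusted p = 0.0178. Hnf4a lay at 12.34 and 12.83 on the muscle arrays and 12.28 and 13.81 on the liver-labelled arrays (-0.45 ± 0.58, adjusted p = 0.621), as bright on muscle as on the liver-labelled PBS array. Of 22 complement and clotting genes, 5 were lower (F13b, Cfb, C8g, Cfi and C3) and 0 higher, with a median of -0.36. F13b, a subunit of clotting factor XIII, lay at 8.92 and 9.06 on the muscle arrays and 12.29 and 12.67 on the liver-labelled arrays (-3.49 ± 0.21, adjusted p = 0.00785) and Cfb at 10.52 and 10.84 on the muscle arrays and 13.48 and 13.38 on the liver-labelled arrays (-2.75 ± 0.20, adjusted p = 0.00901).

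Fat cell genes were lower in muscle in 15 of 30 cases and higher in 1, with a median of -1.52. They were bright on the muscle arrays too, where the list had a median of 12.18 and 12.55, against 13.89 and 14.05 on the liver-labelled arrays. Lep, the leptin gene, whose transcript persists in ob/ob mice although no working hormone is made, lay at 12.98 and 12.94 on the muscle arrays and 15.04 and 15.93 on the liver-labelled arrays (-2.52 ± 0.35, adjusted p = 0.0213). Cidec, a lipid droplet protein, lay at 12.35 and 12.57 on the muscle arrays and 15.56 and 15.27 on the liver-labelled arrays (-2.95 ± 0.20, adjusted p = 0.00871). Adipoq, adiponectin, lay at 13.17 and 13.54 on the muscle arrays and 14.59 and 14.56 on the liver-labelled arrays (-1.22 ± 0.21, adjusted p = 0.0297) and Cfd, adipsin, differed by -1.92 ± 0.24, adjusted p = 0.0175. Thrsp, a lipogenic regulator, lay at 9.76 and 10.09 on the muscle arrays and 12.90 and 13.08 on the liver-labelled arrays and gave the largest difference on the list, -3.07 ± 0.21, adjusted p = 0.00862. Mest, linked to fat cell growth, differed by -2.68 ± 0.30, adjusted p = 0.0147, Dgat2, the last step of triglyceride synthesis, by -2.55 ± 0.20, adjusted p = 0.0101 and Slc7a10, an amino acid transporter of fat, by -2.45 ± 0.18, adjusted p = 0.00911. Pparg, the master regulator of fat cells, lay at 10.18 and 10.59 on the muscle arrays and 11.77 and 12.73 on the liver-labelled arrays (-1.86 ± 0.39, adjusted p = 0.0461). Plin1 (Plin on the array), which coats the droplet, lay at 9.16 and 9.57 on the muscle arrays and 11.15 and 12.26 on the liver-labelled arrays (-2.34 ± 0.43, adjusted p = 0.0364).

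Of the 30 fat cell genes, 14 did not pass, among them some of the brightest. Fabp4 lay at 16.14 and 15.66 on the muscle arrays and 15.87 and 15.96 on the liver-labelled arrays (-0.02 ± 0.23, adjusted p = 0.97), Scd1 at 15.80 and 15.27 on the muscle arrays and 15.82 and 15.90 on the liver-labelled arrays (-0.33 ± 0.25, adjusted p = 0.406) and Car3, abundant in both muscle and fat, at 15.51 and 15.78 on the muscle arrays and 15.55 and 15.54 on the liver-labelled arrays (0.10 ± 0.19, adjusted p = 0.755). Sfrp5, a secreted Wnt inhibitor, passed as higher in muscle, at 14.51 and 14.24 on the muscle arrays and 13.21 and 12.65 on the liver-labelled arrays (1.45 ± 0.27, adjusted p = 0.0365). Brown fat genes gave 3 higher, 1 lower and a median of -0.13 over 12. The 3 were Cox7a1, Cox8b and Cpt1b, which muscle expresses as well, and the 1 was Slc27a2, which is expressed in liver and kidney. Ucp1, the defining gene of brown fat, lay at 8.32 and 8.92 on the muscle arrays and 9.59 and 9.25 on the liver-labelled arrays (-0.80 ± 0.29, adjusted p = 0.137).

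The leptin promoter is shown because Lep is the gene mutated in these mice and passed as lower in muscle, with its TTGCNNAA match in capitals, beginning 55 bases before the start (chr6:29059971-29060270, plus strand, GRCm38.p6). This motif was present in 15.4% of 39 windows of fat-list genes, against 10.8% of all windows and 9.42% of those of genes tested.
Lep: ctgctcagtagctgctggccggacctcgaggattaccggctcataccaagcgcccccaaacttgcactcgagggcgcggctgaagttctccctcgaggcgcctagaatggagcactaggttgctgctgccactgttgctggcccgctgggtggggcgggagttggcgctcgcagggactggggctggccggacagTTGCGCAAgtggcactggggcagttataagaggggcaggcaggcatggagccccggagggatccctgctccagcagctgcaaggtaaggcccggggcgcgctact

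Of the 50 most negative differences that passed, 6 were of kidney-list genes, 5 of liver-list genes and 1 of a fat-list gene. Of 28 proximal tubule genes, 14 passed as lower in muscle and 1 as higher, with a median of -2.87. In 24 of the 28, both muscle arrays lay below both liver-labelled arrays, against a share of 36.04% of all genes. Of 30 genes of the distal tubule and collecting duct, 10 were lower and 1 higher, with a median of -1.02. Slc34a1, the phosphate transporter of the proximal tubule, lay at 9.37 and 10.49 on the muscle arrays and 14.24 and 15.44 on the liver-labelled arrays (-4.91 ± 0.59, adjusted p = 0.0165). Miox, the inositol oxygenase of the same cells, lay at 9.49 and 10.41 on the muscle arrays and 14.34 and 15.31 on the liver-labelled arrays (-4.88 ± 0.49, adjusted p = 0.0125), and Tmem27, collectrin, which stabilises amino acid transporters, at 7.74 and 8.36 on the muscle arrays and 12.25 and 13.56 on the liver-labelled arrays (-4.85 ± 0.52, adjusted p = 0.0137). Kap, the androgen-regulated kidney protein, was the brightest of the list, at 9.61 and 12.81 on the muscle arrays and 16.07 and 16.05 on the liver-labelled arrays. Its difference of -4.85 ± 1.11, adjusted p = 0.0558 did not pass, and the muscle arrays were more than 3 log2 steps apart. The glucose transporter Slc5a2, the target of gliflozin drugs, lay at 8.68 and 8.91 on the muscle arrays and 12.06 and 12.91 on the liver-labelled arrays (-3.69 ± 0.34, adjusted p = 0.0117). The endocytic receptors Lrp2, megalin, and Cubn, cubilin, differed by -3.18 ± 0.68, adjusted p = 0.048 and -3.40 ± 0.29, adjusted p = 0.0106. Like Tmem27, both were at the floor on the PBS muscle array, which bounds their dim side. A dim second probe of Lrp2 gave only -0.35.

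Later segments were represented as well. Umod, uromodulin of the thick ascending limb, lay at 8.43 and 9.13 on the muscle arrays and 12.47 and 14.27 on the liver-labelled arrays (-4.59 ± 0.68, adjusted p = 0.0245), and Slc12a1, the salt transporter blocked by furosemide, at 8.52 and 8.81 on the muscle arrays and 11.86 and 13.08 on the liver-labelled arrays (-3.80 ± 0.46, adjusted p = 0.017). Cdh16, a cadherin of kidney tubules, differed by -4.16 ± 0.61, adjusted p = 0.0239, Kl, klotho, by -2.82 ± 0.31, adjusted p = 0.0143, Calb1, of the distal convoluted tubule, by -2.41 ± 0.35, adjusted p = 0.0234 with -2.26 on its second probe, and Aqp2, the water channel of the collecting duct, by -1.28 ± 0.28, adjusted p = 0.0494. The salt transporter Slc12a3, which thiazides block, lay at 9.64 and 9.89 on the muscle arrays and 10.92 and 12.56 on the liver-labelled arrays (-1.98 ± 0.59, adjusted p = 0.0969) and did not pass. Glomerular genes defining the podocyte were dim. Nphs1, nephrin of podocytes, lay at 8.58 and 8.52 on the muscle arrays and 8.76 and 8.64 on the liver-labelled arrays and Wt1 at 8.23 and 8.37 on the muscle arrays and 8.66 and 8.90 on the liver-labelled arrays. Podxl and Synpo, which passed as lower (-1.45 ± 0.18, adjusted p = 0.0181 and -1.29 ± 0.22, adjusted p = 0.0303), are also expressed by endothelium and other cells. The 2 genes in the opposite direction were Slc7a8, an amino acid transporter, at 14.49 and 14.71 on the muscle arrays and 12.75 and 12.57 on the liver-labelled arrays (1.94 ± 0.19, adjusted p = 0.0122), and Kcnj10, a potassium channel, at 13.40 and 13.38 on the muscle arrays and 11.52 and 11.02 on the liver-labelled arrays (2.12 ± 0.24, adjusted p = 0.0145).

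The liver-labelled arrays differed from each other in the kidney genes. The proximal tubule list was 1.25 higher in the median on the MCSE array than on the PBS array, and 0.35 higher on the MCSE muscle array than on the PBS muscle array, against -0.02 and -0.03 over all genes. Its median muscle minus liver-labelled difference was -2.12 between the PBS arrays and -3.44 between the MCSE arrays. Without the MCSE liver-labelled array the median was -2.03 and without the PBS one -3.67. The direction was the same each time and the size moved by more than 1.5 times between the 2 choices. As with the slow-fibre genes, the treatment and the piece of tissue on each array cannot be told apart.

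The Miox promoter is shown as an example from the proximal tubule (chr15:89334223-89334522, plus strand, GRCm38.p6). Capitals mark TATAAA, which begins 40 bases before the start and was present in 17.2% of the 64 windows of kidney-list genes, 29.5% of liver-list windows and 13.6% of all windows. Over the windows of all genes tested the share was 10.6%.
Miox: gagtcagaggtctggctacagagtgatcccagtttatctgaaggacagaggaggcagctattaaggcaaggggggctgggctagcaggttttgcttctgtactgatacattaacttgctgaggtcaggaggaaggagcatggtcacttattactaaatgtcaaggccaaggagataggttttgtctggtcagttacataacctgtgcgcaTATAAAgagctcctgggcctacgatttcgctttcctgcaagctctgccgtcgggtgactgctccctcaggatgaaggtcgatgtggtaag

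**Figure D3:**
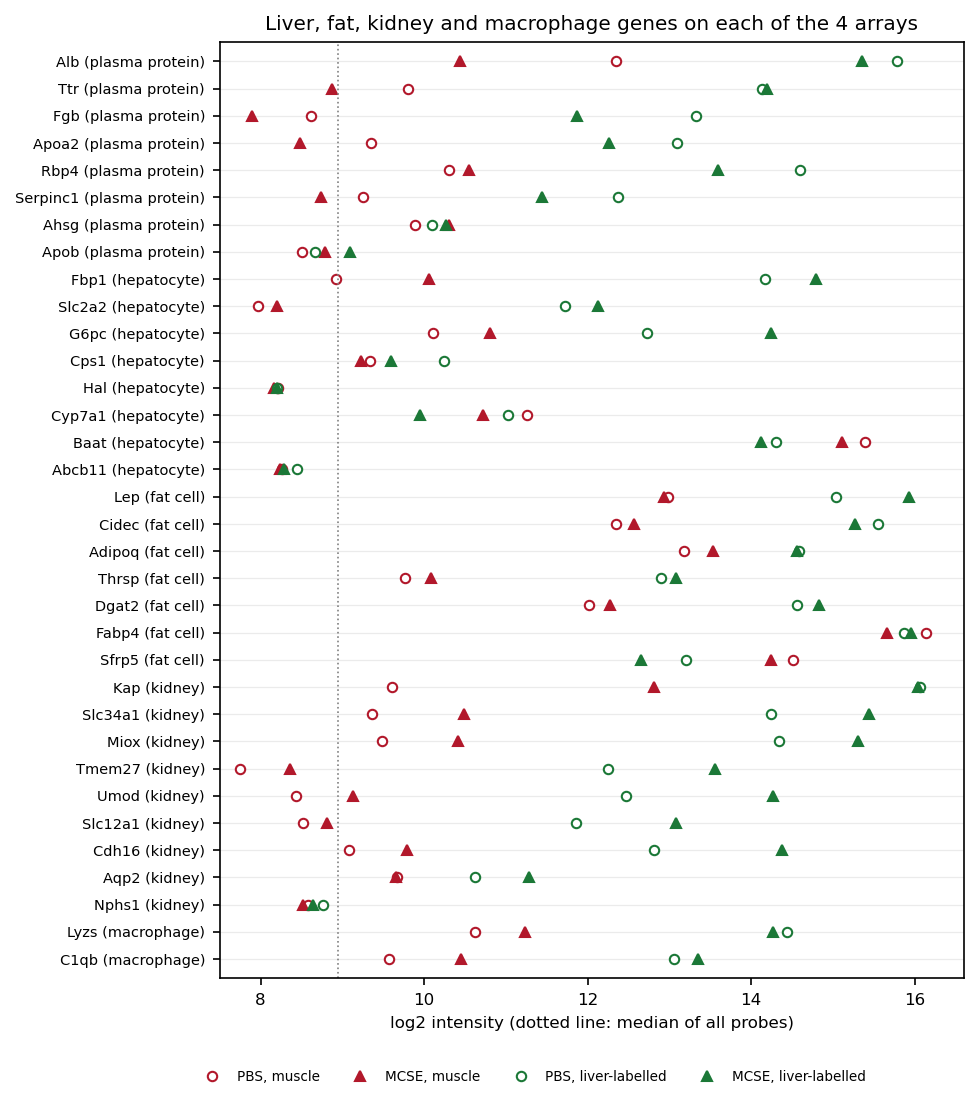
Log2 intensity of liver, fat, kidney and macrophage genes on the 4 arrays (PBS, open circle; MCSE, filled triangle; red, muscle; green, liver-labelled; dotted line, median of all probes). Fat cell genes other than Thrsp lie high on both labels. Most of the kidney genes plotted reach 12 to 16 on the liver-labelled arrays, with Aqp2, Nphs1 and the PBS value of Slc12a1 below 12. Over all kidney list genes tested the medians there were lower, 10.81 and 11.51. Hal, Abcb11 and Nphs1 stay below the dotted line on all 4 arrays.

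The 12 largest differences in each direction had different makeups. Of the 12 highest in muscle, 10 were on the muscle lists. The others were Mylc2pl, a myosin regulatory light chain, at 15.05 and 15.24 on the muscle arrays and 7.98 and 8.05 on the liver-labelled arrays (7.13 ± 0.18, adjusted p = 0.00429), and Cmya5, myospryn, a partner of desmin, at 15.55 and 15.28 on the muscle arrays and 8.90 and 8.59 on the liver-labelled arrays (6.67 ± 0.21, adjusted p = 0.00429) with 6.29 on its second probe. Of the 12 lowest in muscle, 3 were on the kidney lists (Slc34a1, Miox and Tmem27), 1 on a liver list (Fbp1) and 1 on a fat list (Slc27a2). Slc27a2, a very long chain fatty acid transporter of liver and proximal tubule, lay at 8.37 and 10.004 on the muscle arrays and 14.23 and 15.01 on the liver-labelled arrays (-5.43 ± 0.64, adjusted p = 0.0163), with -3.97 on its second probe. Klk1, tissue kallikrein, known from kidney and salivary gland, lay at 8.31 and 10.18 on the muscle arrays and 15.60 and 15.70 on the liver-labelled arrays and had the lowest value of all (-6.41 ± 0.66, adjusted p = 0.0131). S100g, the vitamin D dependent calbindin-D9k of kidney and gut, lay at 8.03 and 9.22 on the muscle arrays and 14.47 and 15.26 on the liver-labelled arrays (-6.24 ± 0.52, adjusted p = 0.0103). Spp1, osteopontin, differed by -5.36 ± 0.62, adjusted p = 0.0155, Guca2b, uroguanylin, by -5.01 ± 0.46, adjusted p = 0.0112, Spink3, a trypsin inhibitor, by -5.61 ± 0.49, adjusted p = 0.0109, Klk1b5, a kallikrein relative, by -5.26 ± 0.46, adjusted p = 0.0107 and the epoxygenase Cyp2j5 by -5.13 ± 0.61, adjusted p = 0.0163. Kallikrein genes are near-identical copies, so the probes of Klk1 and Klk1b5 may share signal. On all 12 of these genes the MCSE array read higher than the PBS one under both labels. Over all genes tested the median MCSE minus PBS difference was -0.03 on the muscle arrays and -0.02 on the liver-labelled arrays.

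Markers of other cell types were compared in the same fit, in which 5.71% of all genes passed as higher in muscle and 9.998% as lower. Macrophage genes passed as lower in muscle in 8 of 18 cases and as higher in 0, with a median of -0.95. Lyz2 (Lyzs on the array), lysozyme, lay at 10.62 and 11.23 on the muscle arrays and 14.44 and 14.27 on the liver-labelled arrays (-3.43 ± 0.27, adjusted p = 0.00989) and C1qb, of the first complement component, at 9.57 and 10.45 on the muscle arrays and 13.06 and 13.35 on the liver-labelled arrays (-3.20 ± 0.36, adjusted p = 0.0147). Clec4f, which marks the Kupffer cells of liver, lay at 9.70 and 9.93 on the muscle arrays and 9.72 and 9.78 on the liver-labelled arrays. Vsig4, of resident macrophages, lay at 15.49 and 15.24 on the muscle arrays and 15.34 and 14.25 on the liver-labelled arrays. Endothelial genes were lower in 4 of 13, among them Kdr (-1.77 ± 0.35, adjusted p = 0.0415) and Egfl7 (-1.52 ± 0.17, adjusted p = 0.0142), and fibroblast and matrix genes in 3 of 17, with Postn, periostin, at 11.07 and 11.46 on the muscle arrays and 13.34 and 13.87 on the liver-labelled arrays (-2.34 ± 0.28, adjusted p = 0.0165). Smooth muscle genes were higher in 3 of 10, of which Des and Synm (Dmn on the array, 3.75 ± 0.23, adjusted p = 0.00756) are shared with skeletal muscle and Myh11 (1.93 ± 0.17, adjusted p = 0.0109) is the smooth muscle myosin. Of 9 exocrine pancreas genes 2 were lower. They were the elastases Cela1 (Ela1 on the array), at 9.18 and 9.30 on the muscle arrays and 13.41 and 12.86 on the liver-labelled arrays (-3.90 ± 0.25, adjusted p = 0.00827), and Cela3b (Ela3). Cela3b differed by -1.75 ± 0.18, adjusted p = 0.0125, with -0.15 on a dim second probe. Cpa1 lay at 7.74 and 7.92 and Pnlip at 8.08 and 8.12 on the liver-labelled arrays, under the median of all probes. Epithelial Cdh1, E-cadherin, lay at 8.43 and 8.18 on the muscle arrays and 11.43 and 11.52 on the liver-labelled arrays (-3.17 ± 0.19, adjusted p = 0.00753). Among the remaining lists, of 12 lymphocyte genes 2 were lower, of 10 neutrophil genes 1 was higher, of 10 adrenal genes 1 was lower, of 10 skin and epithelial genes 3 were lower, of 7 nerve genes 3 were lower, and 0 of 2 erythroid genes passed. C1qb, Clec4f, Vsig4, Cpa1 and Pnlip here, and Acaca and Slc13a1 below, were named after their values were seen. Whether these other cells, or their share in the tissue pieces, contributed to the differences above was not tested.

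Lists of genes that most cells use were compared in the same way. Proteasome genes gave 2 higher (7.41%) and 0 lower of 27 and ribosomal protein genes 0 higher and 1 lower (11.1%) of 9. These 2 shares were near those of all genes, 5.71% higher and 9.998% lower. Oxidative phosphorylation genes had a median of 0.71, with 3 of 29 higher in muscle (Ndufs1, Uqcrc1 and Atp5j) and 0 lower. Ndufs1, the largest complex I subunit, lay at 14.40 and 14.28 on the muscle arrays and 12.32 and 12.71 on the liver-labelled arrays (1.82 ± 0.22, adjusted p = 0.0163). Of 18 fatty acid oxidation genes 1 was higher (5.56%) and 2 were lower (11.1%), also near the shares of all genes. The pair of carnitine palmitoyltransferases ran in opposite directions. Cpt1b, the muscle form, lay at 10.86 and 11.60 on the muscle arrays and 8.30 and 8.69 on the liver-labelled arrays (2.73 ± 0.33, adjusted p = 0.017), and Cpt1a, the form of liver and kidney, at 11.15 and 10.88 on the muscle arrays and 13.74 and 13.91 on the liver-labelled arrays (-2.81 ± 0.20, adjusted p = 0.00874). Acetyl-CoA carboxylase split in the same way. Acacb, whose product restrains fat entry into mitochondria, was higher in muscle, at 13.10 and 12.85 on the muscle arrays and 10.18 and 10.37 on the liver-labelled arrays (2.70 ± 0.19, adjusted p = 0.00901), although a dim second probe gave 0.24. Acaca, the synthetic form, was lower, at 9.99 and 10.41 on the muscle arrays and 12.14 and 11.70 on the liver-labelled arrays (-1.72 ± 0.27, adjusted p = 0.0259).

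Lipid synthesis genes were lower in muscle in 11 of 22 cases and higher in 1, against 9.998% and 5.71% of all genes, with a median of -1.14. Acly, which makes cytosolic acetyl-CoA, lay at 10.86 and 10.69 on the muscle arrays and 13.25 and 13.10 on the liver-labelled arrays (-2.40 ± 0.18, adjusted p = 0.00921), Fasn, fatty acid synthase, at 13.17 and 12.92 on the muscle arrays and 14.78 and 14.57 on the liver-labelled arrays (-1.63 ± 0.20, adjusted p = 0.017) and Scd2 at 11.82 and 11.65 on the muscle arrays and 13.90 and 13.82 on the liver-labelled arrays (-2.13 ± 0.18, adjusted p = 0.0103). The sterol enzymes Idi1 (-1.93 ± 0.19, adjusted p = 0.0119) and Cyp51 (-1.90 ± 0.19, adjusted p = 0.0126) were lower too. Of 23 transporter genes of liver and kidney, 12 were lower and 1 higher, with a median of -1.51. Slc13a1, the sulphate transporter of the proximal tubule, lay at 7.91 and 9.14 on the muscle arrays and 12.39 and 12.96 on the liver-labelled arrays (-4.15 ± 0.49, adjusted p = 0.0164).

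Of 27 genes of insulin signalling, 4 passed as higher in muscle (14.8%, against 5.71% of all genes) and 0 as lower. The list median was 0.33, which became 0.0055 after centring on proteasome and ribosome genes. Insr, the insulin receptor, lay at 11.94 and 11.22 on the muscle arrays and 9.96 and 10.06 on the liver-labelled arrays (1.57 ± 0.30, adjusted p = 0.038). Pdpk1, the kinase that activates Akt, differed by 1.36 ± 0.19, adjusted p = 0.022, and Socs1, an inhibitor of cytokine signalling, by 1.21 ± 0.22, adjusted p = 0.0333, though its dim second probe gave -0.10. Slc2a4 was the fourth. Akt2 lay at 12.99 and 13.01 on the muscle arrays and 13.24 and 12.59 on the liver-labelled arrays (0.09 ± 0.28, adjusted p = 0.853) and Pik3r1, a regulatory partner of the lipid kinase downstream of the receptor, at 12.34 and 11.29 on the muscle arrays and 11.25 and 11.34 on the liver-labelled arrays (0.52 ± 0.40, adjusted p = 0.413). A second probe of Akt2, with a mean of 9.69, gave -0.63. Irs1 was at 7.96 and 8.26 on the muscle arrays and 7.89 and 7.95 on the liver-labelled arrays, under the median of all probes on each array. A difference that missed the threshold does not show that the levels were equal.

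**Figure D4:**
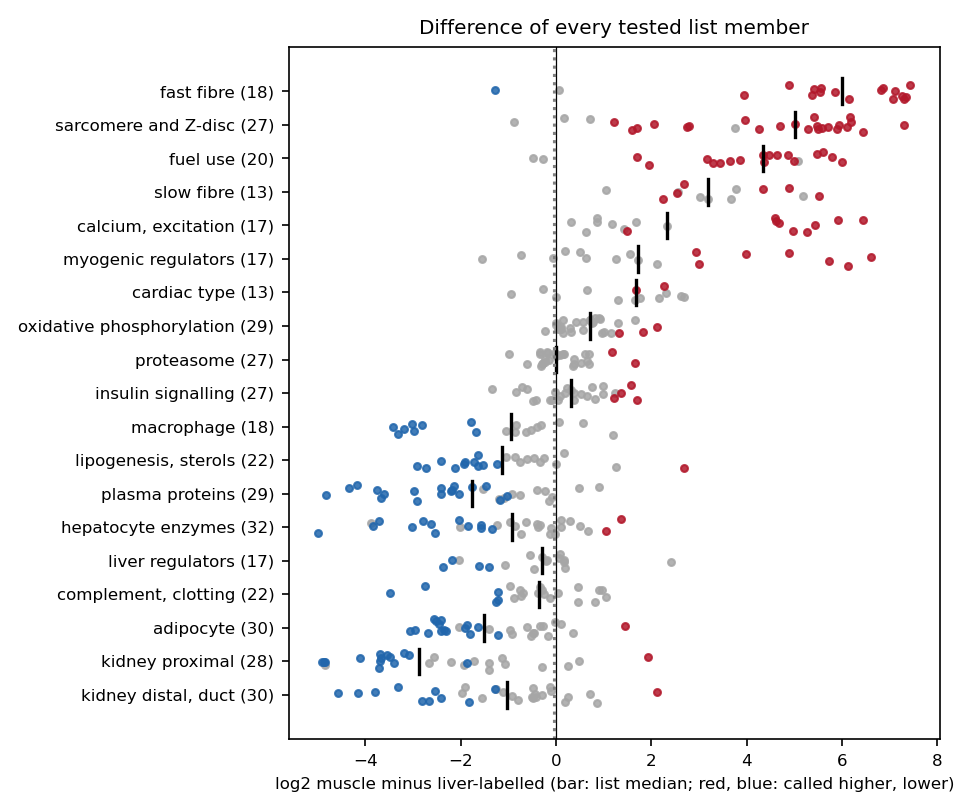
Difference between muscle and liver-labelled arrays (log2) for every tested member of 19 gene lists, with the number tested in brackets. Red and blue points passed as higher and lower in muscle, grey points did not pass, the bar is the list median and the dotted line the median of all genes (-0.04). Fast-fibre genes centre on 6.01, proteasome genes on 0 and proximal tubule genes on -2.87.

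A second probe gave a separate reading for 3538 of the genes. Of 278 genes that passed as higher in muscle and had one, 206 also lay above 0 on it and 96 were at least 2-fold higher, against 8.48% of all second probes. Of 335 that passed as lower, 264 lay below 0 on it and 117 were at least 2-fold lower, against 7.43% of all. In 13 of the 278 and 10 of the 335 the second probe was 2-fold or more in the opposite direction. Second probes whose mean over the 4 arrays reached the median of all probes are plotted. That filter favours probes that are bright in 1 tissue, so their counts are a description only. With the second probe alone, limma gave 117 genes higher and 159 lower of 3487 tested. The sign of a difference therefore depended on the probe in a minority of genes, of which Eno3 is one.

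**Figure D5:**
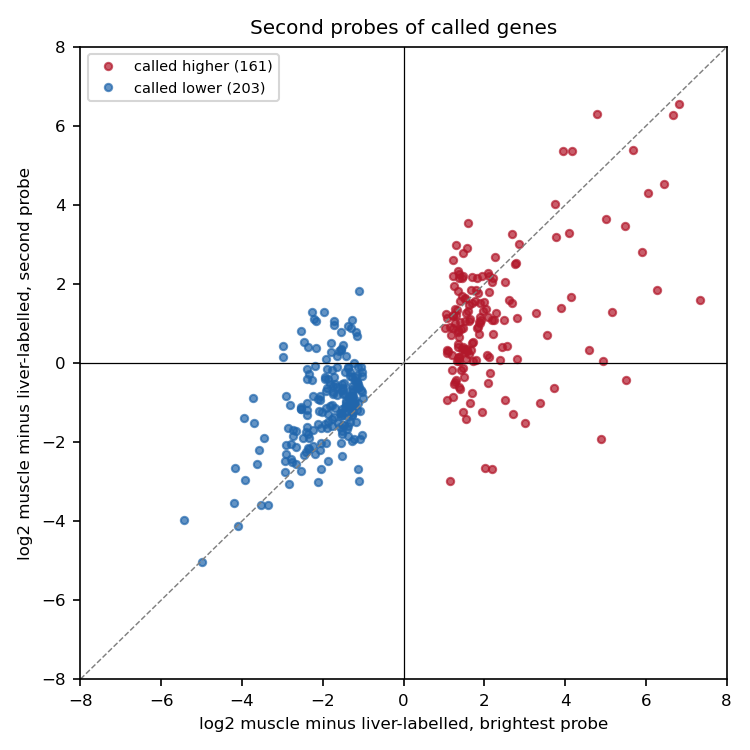
Difference between muscle and liver-labelled arrays on the brightest probe (x) and on the second brightest probe (y), both log2, for genes that passed and whose second probe reached the median of all probes (161 higher, red; 203 lower, blue). Of the red points 133 lie above 0 and of the blue points 174 lie below it. The dashed line marks equal differences.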

How the data were processed

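The authors deposited 1 table of normalized Cy5 intensities on a linear scale for 29922 probes and 6 arrays. The sorted values of its columns lie within 0.0385 of their median on the log2 scale, per the file's values. Limma is named without a role in the submitters' processing notes, and background correction, normalization and scanner are not given in the sources used here. A normalization that gives every array nearly the same distribution can hide a change in most genes. Probes were named through the platform annotation given with the data (21020 had 1 symbol, 8902 none, 0 several). Values under the 5th percentile were raised to it (214.25), log2 was taken, and the probe with the highest mean over the 4 arrays stood for its gene. Of 16675 symbols, 151 at the floor on all 4 arrays were left out, and a gene's other probes were used as a check. Limma 3.58.1 (R 4.3.3; lmFit and eBayes) compared the 2 muscle with the 2 liver-labelled arrays, with Benjamini-Hochberg adjustment over 16524 genes and 2 residual degrees of freedom. The steps were tested on simulated data.

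Nothing says whether arrays came from separate animals, so p-values measure only the spread between these arrays. The members and lists were chosen with earlier results of these data known. The genes named were the 12 largest passing differences each way, with their second probes, members of the muscle, liver, fat and kidney lists, up to 4 of each other list with the smallest adjusted p each way, and genes of insulin action, besides 7 named after their values were seen. Alternatives changed the floor, scaling, probe choice, dim filter, spread, threshold and arrays used. Promoter windows came from RefSeq (GRCm38.p6).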

Additional observations from a re-analysis of the deposited data

How the results depend on the processing

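The counts of genes that passed (943 higher and 1652 lower in muscle) stayed within 1.5 times under quantile normalization, other floors, the mean over probes, the probe chosen over 6 arrays, both filters on dim genes, no minimum fold, and limma's trend and robust options. At an adjusted p under 0.01, 144 and 120 passed, and limma's test against a 2-fold difference gave 205 and 241. Centring on proteasome and ribosome genes gave 609 and 2555. The second brightest probe, which only 3487 genes have, gave 117 and 159. All 6 arrays in 1 fit gave 44 and 0, with 1476 genes at an unadjusted p under 0.05. The spread in that fit includes the 2 adipose-labelled arrays, which correlated at 0.322, and the cause of the lower counts was not tested. Leaving out any 1 array gave 0 and 0, from a fit in which the lone array was assumed to vary like the other tissue's pair and 1 residual degree of freedom remained. With treatment as a replicate block 1356 and 1845 passed. The labels number no replicates, and nothing ties the arrays of a treatment to 1 animal.

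The median of the muscle lists (3.78) ranged from 3.58 to 4.26 with 1 array left out and was 1.04 on the second probe. That of the liver lists (-0.91) ranged from -0.91 to -0.88, and was -0.87 with 32 added or with probes averaged, -1.23 after centring, -1.20 and -1.44 with the filters on the maximum and the mean, and -0.43 on the second probe. That of the fat lists (-0.91) ranged from -1.10 to -0.75, and was -0.87 with 32 added, -1.23 after centring, -0.95 and -0.97 with the filters and -0.77 on the second probe. That of the kidney lists (-1.55) ranged from -2.15 to -1.11 and was -0.33 on the second probe. The second probe reversed 3 list medians, those of the distal tubule (0.04), fibroblast (0.07) and transporter lists (0.02), each over 5 genes or fewer, and 3 named genes, Eno3 (-1.91), Smyd1 (5.03) and Socs1 (-0.10). In each case the cause was not tested. Over all settings, 33 further changes of sign concerned named genes that passed in neither fit. Centring on proteasome and ribosome genes also turned the sign of 4 list medians, those of the neutrophil, lymphocyte, adrenal and fatty acid oxidation lists, all within 0.23 of 0 before.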
